A study of Mus musculus with 2 samples.

Results

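Antisense gene models are stretches of the genome annotated as transcribed from the strand opposite another gene. The deposited count table held 1056 of them among 32958 gene models of UCSC knownCanonical, counted on the mouse genome build mm10. The models described here carry the category antisense in that table, lie on an autosome and have at least 20 reads over both libraries, with the model of most reads standing for its symbol. Of 1035 autosomal antisense models, 378 had 0 reads, 401 had 1 to 19 reads and 256 had 20 reads or more. No symbol occurs more than once among the 256. For 22 of the 256 the symbol also stands for a model of another category, and for 11 that other model has more reads. Counts given for a member are those of its antisense model. These 256 are all the members, so every one passed the read minimum because the minimum chose it. They held 24498 reads in normal kidney and 19366 in the tumour library, which is 0.0837% and 0.0929% of the reads counted.

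The study compared 1 RNA-seq library of a normal mouse kidney with 1 library of a kidney tumour that formed during reprogramming inside the animal. The normal kidney is labelled WT and received no doxycycline, and the tumour is labelled Tet-OSKM/mPer2-luc with doxycycline given; both are C57BL/6 x DBA/2 F1. The protocol printed for both samples describes chimeras made by putting Rosa26-M2rtTA TetO-OSKM mPer2-luc embryonic stem cells into blastocysts, in which doxycycline switches on Oct4, Sox2, Klf4 and c-Myc and a luciferase reports the clock gene Per2, so a tumour of such an animal can also hold host cells. The sources used here do not give age, sex, time of sampling or the number of animals. With 1 library per group no difference below has a replicate check.

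Antisense transcripts of this kind are often spliced, polyadenylated and low in abundance, and many do not code for protein. Some begin just inside the first part of a gene and run out past its start, so that a single CpG-rich region can serve both directions. Others begin beyond the 3' end of a gene and run into it. The best known cases regulate imprinted domains from the strand opposite the protein-coding gene, as the antisense transcripts at Gnas and at Rtl1 do. Ribosomal RNA was removed and the strand of the transcript was marked in the library kit, which is what allows such models to be counted apart from the gene they overlap. The sources used here do not give the strand setting of the counting step, and without it reads of a model and of its opposite-strand gene cannot be told apart with certainty.

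The sequences that bear on the results are given first. Promoter windows run from 250 bases before to 50 bases after the start of transcription, on the strand of the antisense model, with each CG dinucleotide in capitals (RefSeq, GRCm38.p6, the same assembly as mm10). Those of 9330162012Rik at chr13:24937151-24937450 (plus strand, opposite Aldh5a1), E230013L22Rik at chr8:11477679-11477978 (plus strand, opposite Rab20) and 4930429B21Rik at chr3:32365239-32365538 (plus strand, opposite Zmat3) show CpG-rich starts that lie just inside the start of the partner gene. Those of 6330410L21Rik at chr3:129753508-129753807 (plus strand, opposite Egf) and 0610005C13Rik at chr7:45575127-45575426 (minus strand, opposite Bcat2) show CG-poor starts of models with strong signal in normal kidney or opposite a strongly expressed kidney gene. That of Pcsk2os1 at chr2:143547788-143548087 (minus strand, opposite Pcsk2) belongs to a model with reads in the tumour library and none in the normal library.
9330162012Rik: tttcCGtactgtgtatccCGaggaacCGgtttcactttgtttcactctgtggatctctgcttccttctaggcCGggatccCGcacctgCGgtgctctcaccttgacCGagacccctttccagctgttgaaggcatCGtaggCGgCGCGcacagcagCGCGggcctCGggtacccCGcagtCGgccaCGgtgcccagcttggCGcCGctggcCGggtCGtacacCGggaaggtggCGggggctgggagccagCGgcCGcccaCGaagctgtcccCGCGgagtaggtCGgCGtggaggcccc
E230013L22Rik: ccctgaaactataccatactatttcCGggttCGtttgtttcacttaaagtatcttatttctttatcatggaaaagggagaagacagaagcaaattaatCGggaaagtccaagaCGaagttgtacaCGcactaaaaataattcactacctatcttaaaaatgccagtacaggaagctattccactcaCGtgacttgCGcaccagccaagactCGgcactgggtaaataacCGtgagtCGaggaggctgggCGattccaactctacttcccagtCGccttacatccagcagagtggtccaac
4930429B21Rik: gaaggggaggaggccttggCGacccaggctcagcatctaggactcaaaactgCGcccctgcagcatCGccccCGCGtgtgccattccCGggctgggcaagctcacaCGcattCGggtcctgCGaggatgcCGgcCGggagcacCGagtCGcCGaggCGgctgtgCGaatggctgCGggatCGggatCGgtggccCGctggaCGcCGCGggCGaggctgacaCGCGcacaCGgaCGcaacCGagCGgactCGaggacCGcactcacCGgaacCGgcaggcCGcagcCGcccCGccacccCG
Pcsk2os1: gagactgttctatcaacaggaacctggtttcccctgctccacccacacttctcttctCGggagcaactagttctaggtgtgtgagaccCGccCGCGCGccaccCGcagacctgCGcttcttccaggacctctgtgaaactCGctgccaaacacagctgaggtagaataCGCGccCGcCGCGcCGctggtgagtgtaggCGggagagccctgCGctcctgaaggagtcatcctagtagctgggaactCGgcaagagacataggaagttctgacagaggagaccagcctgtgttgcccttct
6330410L21Rik: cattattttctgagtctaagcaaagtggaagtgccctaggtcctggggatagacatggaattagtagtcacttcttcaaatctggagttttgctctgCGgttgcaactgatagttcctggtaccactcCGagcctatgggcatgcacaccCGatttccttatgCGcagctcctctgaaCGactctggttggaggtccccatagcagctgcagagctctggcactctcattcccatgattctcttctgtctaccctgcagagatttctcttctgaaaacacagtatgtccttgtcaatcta
0610005C13Rik: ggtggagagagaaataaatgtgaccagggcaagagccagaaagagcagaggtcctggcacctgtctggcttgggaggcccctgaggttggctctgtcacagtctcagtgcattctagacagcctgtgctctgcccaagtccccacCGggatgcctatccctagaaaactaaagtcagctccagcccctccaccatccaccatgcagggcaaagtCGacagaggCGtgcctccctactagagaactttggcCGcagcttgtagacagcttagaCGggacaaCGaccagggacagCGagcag
The windows hold 30, 12, 38, 17, 5 and 7 CG dinucleotides in the order printed. Their ratios of observed to expected CpG are 0.882, 0.822, 0.977, 0.654, 0.292 and 0.284.

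6430411K18Rik, among the models with the largest differences toward the tumour, lies opposite the imprinted gene Rtl1. It contains the microRNA genes Mir433 and Mir127, and Mir432 is a member in its own right further along the same strand. MicroRNAs made from this strand are fully complementary to Rtl1 messenger RNA. Their mature sequences are shown because they are the functional products of these antisense models, with the seed, bases 2 to 8, in capitals (RefSeq, GRCm38.p6, plus strand of chromosome 12).
mmu-miR-433-5p: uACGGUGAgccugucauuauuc
mmu-miR-433-3p: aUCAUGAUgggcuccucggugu
mmu-miR-127-5p: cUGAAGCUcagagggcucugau
mmu-miR-127-3p: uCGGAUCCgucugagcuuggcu
mmu-miR-432: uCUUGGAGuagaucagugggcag
The 5 sequences have 5 distinct seeds. The library kit is not designed for RNAs this short, so the counts below are those of the host models and not of the mature products.

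Checked against GENCODE M21 on the same assembly, the label antisense held for the geometry. A gene on the opposite strand overlapped 254 of the 256 models. On its own strand, a model most often overlapped a gene that GENCODE types as antisense (113 models) or processed transcript (44), and 28 overlapped no GENCODE gene there. A protein-coding GENCODE gene lay on the same strand as 39 models, and 9 of these carried that gene's name, among them Nkx6-2 and Sfpq, so these 39 are not clean antisense transcripts. For 22 of the 39 the coding gene had another symbol and was measured in the table. In those 22, 6 model and gene pairs lay past 2-fold in the same direction and none in opposite directions (Spearman's rho of the log2 ratios 0.735 across the 22). Whether reads of these models are reads of the gene they lie in was not tested.

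Most of these models had few reads. Their median was 61.5 reads over both libraries, against 998 for all 16326 measured symbols, 163 had 20 to 99 reads, 88 had 100 to under 1000 and 5 had 1000 or more. Per length, the median deposited RPKM (reads scaled to transcript length and library total) was 0.501 in normal kidney and 0.440 in the tumour library, against 4.22 and 4.89 for protein-coding genes. The 5 models with most reads took 31.9% of all the models' reads in normal kidney and 34.7% in the tumour library. At the minimum itself, the 11 models with 20 or 21 reads had 0 to 17 reads in normal kidney and 4 to 20 in the tumour library, and the 16 models just outside with 18 or 19 reads had 0 to 18 and 0 to 19.

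A ratio, tumour over normal, was formed from counts scaled with TMM, and a difference was called where it reached 2-fold and its exact 95% interval excluded 1. That interval covers counting error only. By this rule 57 models (22.3%) were higher in the tumour library, 98 (38.3%) were lower and 101 were neither. Among all 16326 measured symbols 31.2% were higher and 28% lower, and among the 1101 other noncoding symbols 34.9% were higher and 26.8% lower. The median log2 ratio of the antisense models was -0.51, with quartiles of -1.80 and 0.76, against 0.08 for all measured symbols and 0.25 for the other noncoding symbols. In a bulk library, fewer cells of a type and less RNA per cell cannot be told apart.

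The split of calls moved with the scaling. With plain CPM (reads scaled to the reads counted) 73 models were higher and 67 lower, and with the totals of the file headers 66 were higher and 79 lower. The same change moved all measured symbols alike: with plain CPM 42.1% of them were higher and 20.2% lower. The median log2 ratio of the antisense models lay 0.591 below that of all measured symbols under TMM, plain CPM, header totals and DESeq2 size factors. This gap is the same by arithmetic, because these scalings multiply every ratio by 1 constant. On the log2 scale of RPKM plus 0.1 the medians were -0.127 for the antisense models and 0.402 for all measured symbols. With RPKM plus 1 they were -0.0423 and 0.245.

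The split was also counted within classes of read number, which bring the depths closer but do not match them, as the bars of calls in read classes show. Among models with 20 to 99 reads, 23.9% of 163 were higher and 35.6% lower, against 47.9% and 22.8% of all 2656 symbols in that class and 39.2% and 25.2% of 567 other noncoding symbols. Among models with 100 to under 1000 reads, 18.2% of 88 were higher and 43.2% lower, against 33.5% and 25.8% of all 5510 symbols and 28.3% and 27.5% of 448 other noncoding symbols. Differences of 8-fold or more toward the normal library were found in 39 models (15.2%, against 9.16% of all measured symbols), and toward the tumour library in 20 models (7.81%, against 12.2%). No test of these shares was made, because the members were chosen by the same reads.

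**Figure D1:**
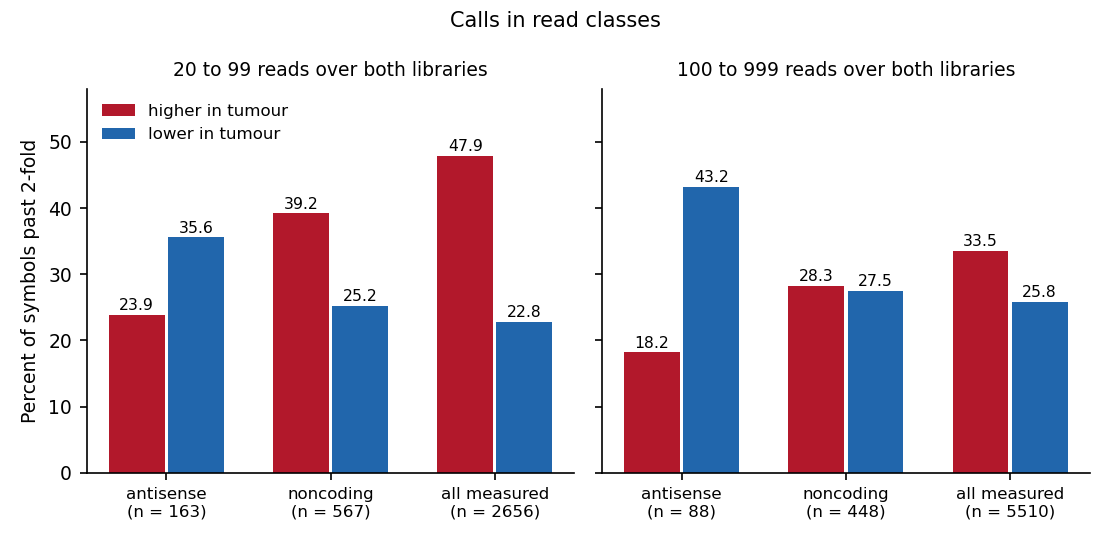
Percent of symbols past 2-fold (vertical axis, from 0) that were higher (red) or lower (blue) in the tumour library, for antisense models, other noncoding symbols and all measured symbols, with 20 to 99 reads (left) and 100 to under 1000 reads (right) over both libraries. In both panels the antisense models have the taller blue bar (35.6% and 43.2%), and all measured symbols have the taller red bar (47.9% and 33.5%).

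**Figure D2:**
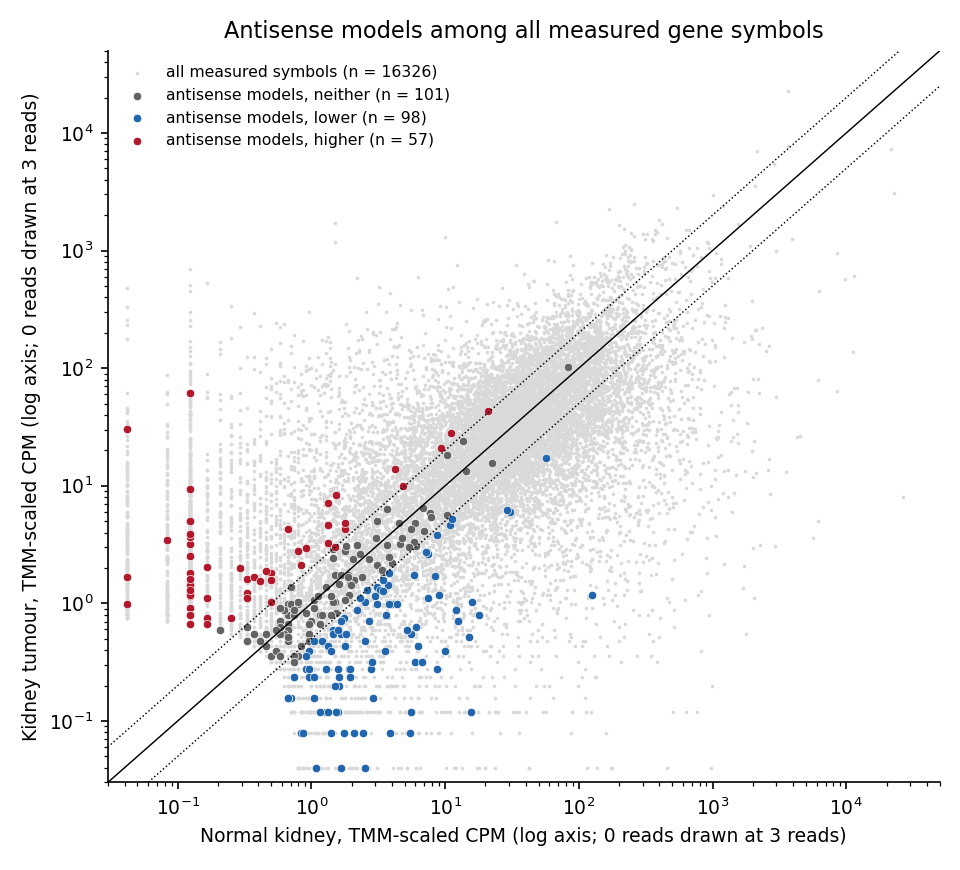
TMM-scaled CPM in the normal (horizontal) and tumour (vertical) library on log axes, for all 16326 measured symbols (grey) and the 256 antisense models (57 higher in red, 98 lower in blue, 101 neither in dark grey); the solid line marks equal levels and the dotted lines 2-fold. The antisense models sit in the lower left of the cloud, and 17 of them have 0 reads in normal kidney and 5 have 0 in the tumour library.

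Markers of cell types differed between the libraries, which bears on every model described below. All 4 proximal tubule markers were lower in the tumour library (summed 18965 CPM against 617 CPM in the tumour), as were all 3 of the loop and distal tubule (6895 and 45.7 CPM) and all 3 of the collecting duct (163 and 4.63 CPM). All 5 pluripotency markers were higher (0.0829 and 1518 CPM, with Pou5f1, Dppa5a and Sox2 at 0 in the normal library), as were the 5 neural markers with enough reads of 6 (0.829 and 157 CPM, with Otx2, Tubb3, Sox1, Elavl4 and Neurod1 at 0 in the normal library) and the 3 muscle markers with enough reads of 4 (11.4 and 153 CPM, with Actc1, Myog and Myod1 at 0 in the normal library). Of the 3 podocyte markers 1 was lower (301 and 199.6 CPM summed), of 3 endothelial markers 1 was lower (251 and 81.8 CPM), of 3 leukocyte markers 1 was higher (70.1 and 67.2 CPM), and both red cell markers found were lower (180.3 and 60.5 CPM). The part of cell composition in the differences of antisense models was not tested. Nuclear RNA decay removes many unstable antisense transcripts. The list of genes for it also held cap-binding and 3' end processing genes, such as Ncbp1 and Cpsf3. Of its 30 measured genes 12 were higher, Ncbp1 among them, and none was lower, with a median log2 ratio of 0.82. With plain CPM 22 of the 30 were higher. The part of these genes was not tested either. The share of all measured symbols that were higher was 31.2%, and 42.1% with plain CPM.

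The most abundant models differed between the libraries. 0610005C13Rik (chr7:45567795-45575176, minus strand) had 2999 reads in the normal kidney, the most of any member there, and 30 in the tumour. At 124 and 1.19 CPM it was 104.8-fold lower in the tumour library (95% interval 73.2 to 156). It starts 5023 bases inside Bcat2, the mitochondrial enzyme of branched-chain amino acid breakdown, and runs out past the start of that gene. Bcat2 itself had 1120 and 1457 reads, 1.24-fold higher (1.15 to 1.34), so the partner did not share the difference of the model. Per length, 0610005C13Rik stood at 422% of Bcat2 in normal kidney and 3.24% in the tumour library.

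Pisd-ps1 (chr11:3124021-3131944, plus strand), a pseudogene of the phosphatidylserine decarboxylase gene, had 2014 and 2593 reads, which is 1.23-fold higher (1.16 to 1.30) and under 2-fold. Reads that also match other copies of the gene family make its count uncertain. It shares 95 bases with the end of Sfi1, a centrosome gene, which had 741 and 1261 reads.

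AB343404 (chr13:24988071-24990999, minus strand) had 1361 and 439 reads and was 3.25-fold lower (2.92 to 3.63). It lies inside Gpld1, a phospholipase that cleaves GPI anchors, on the strand of the neighbouring gene Mrs2, a mitochondrial magnesium channel, whose GENCODE span contains it. Mrs2 had 1232 and 366 reads, a log2 ratio of -1.82 beside -1.70 for AB343404, and Gpld1 had 158 and 16 reads. The values of AB343404 and Mrs2 therefore lay close together.

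4933431E20Rik (chr3:107888850-107896213, minus strand) had 740 and 152 reads, 5.10-fold lower (4.28 to 6.12). It starts past the end of Eps8l3, a signalling adaptor, and overlaps its last 4051 bases. Eps8l3 had 49 and 36 reads, 1.43-fold lower with an interval that spans 1 (0.909 to 2.26).

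BC033430 (chr1:178322166-178323965, minus strand) had 505 and 1098 reads, 2.07-fold higher (1.87 to 2.31). GENCODE places it within Hnrnpu, a nuclear RNA-binding protein gene on the same strand, which had 8477 and 31420 reads.

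Antisense RNAs of imprinted genes, which are expressed from 1 parental copy, included the largest differences toward the tumour. Nespas (chr2:174281237-174295436, minus strand) is the antisense transcript of the Gnas domain, where it is known to silence the Nesp promoter in cis. It had 0 reads in the normal kidney and 1552 in the tumour. Against a floor of 3 reads it was 494-fold higher, with a lower interval limit of 401-fold. At 61.4 CPM it was the second most abundant member in the tumour. Gnas, the gene of the stimulatory G protein subunit, had 8475 and 6313 reads, 1.41-fold lower (1.36 to 1.45). The 8475 reads of Gnas in normal kidney stood beside 0 reads of Nespas on the other strand. The spans share 11117 bases, but reads were counted over exons. Exons of the other strand cover 10.2% of the whole Nespas span, introns included. Of the 3143 exon bases of Nespas in GENCODE, 1210 are shared with exons of the other strand. How far the reads of both strands were kept apart here was not tested.

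6430411K18Rik (chr12:109591537-109592915, plus strand), host of Mir433 and Mir127, had 1 and 775 reads. The ratio was 739-fold (132 to 29239.6), a wide interval that rests on 1 read in the normal library. Rtl1, a retrotransposon-derived gene needed in the placenta, had 3 and 5 reads on the other strand. Mir432 (chr12:109594956-109595030, plus strand) had 0 and 41 reads, 13.04-fold higher against the floor of 3 reads, and was named after its values were seen. Both models lie wholly inside Rtl1, so in the tumour the reads of this stretch lay almost wholly on the antisense strand.

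Igf2os (chr7:142659693-142670356, plus strand), antisense to the fetal growth factor gene Igf2, had 0 and 36 reads, 11.4-fold higher against the floor (lower interval limit 8.84). Zim3 and Usp29, a pair in the imprinted Peg3 domain named after their values were seen, had 0 and 20 reads and 0 and 283 reads. On the list of imprinted antisense RNAs, 9 of 18 entries were found in the table in any category and 7 were measured, of which 5 were higher, 1 lower and 1 neither, beside 31.2% higher and 28% lower among all measured symbols. Those not among the members included Kcnq1ot1 (4020 and 13690 reads), Snhg14 (134 and 2731) and Airn (27 and 74), all higher, and Peg13 (801 and 284), which was lower.

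Antisense RNAs of developmental loci went both ways. Hoxaas2 (chr6:52165674-52169451, plus strand), from the HoxA cluster that patterns the body axis, had 3 and 30 reads, 9.54-fold higher (2.97 to 48.8), while Hoxa3 across from it had 60 and 47 reads. Of 16 entries on the list of Hox antisense RNAs, 8 were found, 4 were measured, 1 was higher, 1 lower and 2 neither. Zeb2os (chr2:45111138-45114084, plus strand) had 179 and 28 reads, 6.70-fold lower (4.48 to 10.4). Its partner is a model of Zeb2, a transcriptional repressor of epithelial genes, that spans only chr2:45109149-45113092. That model had 179 and 104 reads, 1.80-fold lower (1.41 to 2.32), and its counts need not stand for the whole gene. Of 55 antisense RNAs of developmental factors, 15 were found and 8 measured, of which 2 were higher, 5 lower and 1 neither. For both lists the shares of all measured symbols were again 31.2% higher and 28% lower. Nkx6-2 (chr7:139579376-139582797, minus strand) is a homeobox gene of neural progenitors rather than an antisense transcript by its GENCODE type. It had 0 and 98 reads, 31.2-fold higher against the floor (lower interval limit 24.9). It meets the end of Inpp5a, an inositol phosphatase, with 718 and 415 reads.

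The other models with the largest differences toward the tumour had 0 to 3 reads in the normal kidney. AK161769 (chr17:36141749-36145744, minus strand) had 0 and 238 reads, 75.7-fold higher against the floor (lower interval limit 61.1), opposite 2410017I17Rik with 0 and 21. AK161769 lies in a region of histocompatibility pseudogenes where near-identical copies make counts uncertain. AK082862 (chr17:70765839-70806059, minus strand), inside the postsynaptic scaffold gene Dlgap1 (10 and 28 reads), had 0 and 128 reads, 40.7-fold higher against the floor (lower interval limit 32.6). LOC105246506 (chr18:80186239-80193569, plus strand), across the end of Rbfa, a mitochondrial ribosome assembly factor (790 and 583 reads), also had 0 and 128 reads. All 3 were at 0 in the normal library, where the floor of 3 reads equals 0.124 CPM.

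AK048798 (chr12:73926481-73949785, minus strand) runs into the 3' part of Hif1a, the oxygen-regulated transcription factor, and had 2 and 87 reads, 41.5-fold higher (11.1 to 348). Hif1a had 3629 and 4993 reads, 1.31-fold higher (1.26 to 1.37). Gm5577 (chr6:87980883-87984180, plus strand) crosses the start of H1fx, a linker histone gene, and had 3 and 92 reads, 29.3-fold higher (9.70 to 144). H1fx had 8 and 267 reads, 31.8-fold higher (15.9 to 74.5), so this pair differed by a like amount.

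Toward the normal kidney, the largest difference was that of LOC102631757 (chr17:31152752-31163052, plus strand), with 377 and 3 reads, 131.7-fold lower (44.7 to 642). It overlaps Tff1, a mucosal trefoil peptide gene with 0 reads in both libraries. AK132490 (chr12:84039469-84053807, minus strand) had 132 and 2 reads, 69.2-fold lower (18.8 to 577), and its partner Acot4, a peroxisomal acyl-CoA thioesterase, had 1611 and 33 reads, 51.2-fold lower (36.3 to 74.6). Gm7457 (chr6:142814231-142833494, plus strand) had 61 and 1 reads, and its partner St8sia1, the GD3 ganglioside synthase, had 4376 and 276. In both of these pairs antisense model and partner lay on the same side.

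AK085384 (chr2:9906149-9915582, plus strand) had 93 and 2 reads, 48.7-fold lower (13.1 to 408), while Taf3, a TFIID subunit whose end it overlaps, had 282 and 468 reads. Gm10872 (chr15:76266787-76269839, minus strand) had 135 and 3 reads, 47.2-fold lower (15.8 to 232), and Spatc1 across from it had 4 and 1. AK007819 (chr2:65238759-65239675, plus strand) had 59 and 2 reads, 30.9-fold lower (8.19 to 261), and no opposite model in the table. These 3 models differed without a like difference of a measured partner.

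AK038969 (chr13:17682713-17695553, minus strand) had 208 and 7 reads, 31.2-fold lower (14.9 to 78.4). It overlaps 141 bases of Mplkip, which had 458 and 709 reads, and lies in the span of Sugct, a mitochondrial CoA transferase gene on its own strand, which had 3670 and 28 reads.

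**Figure D3:**
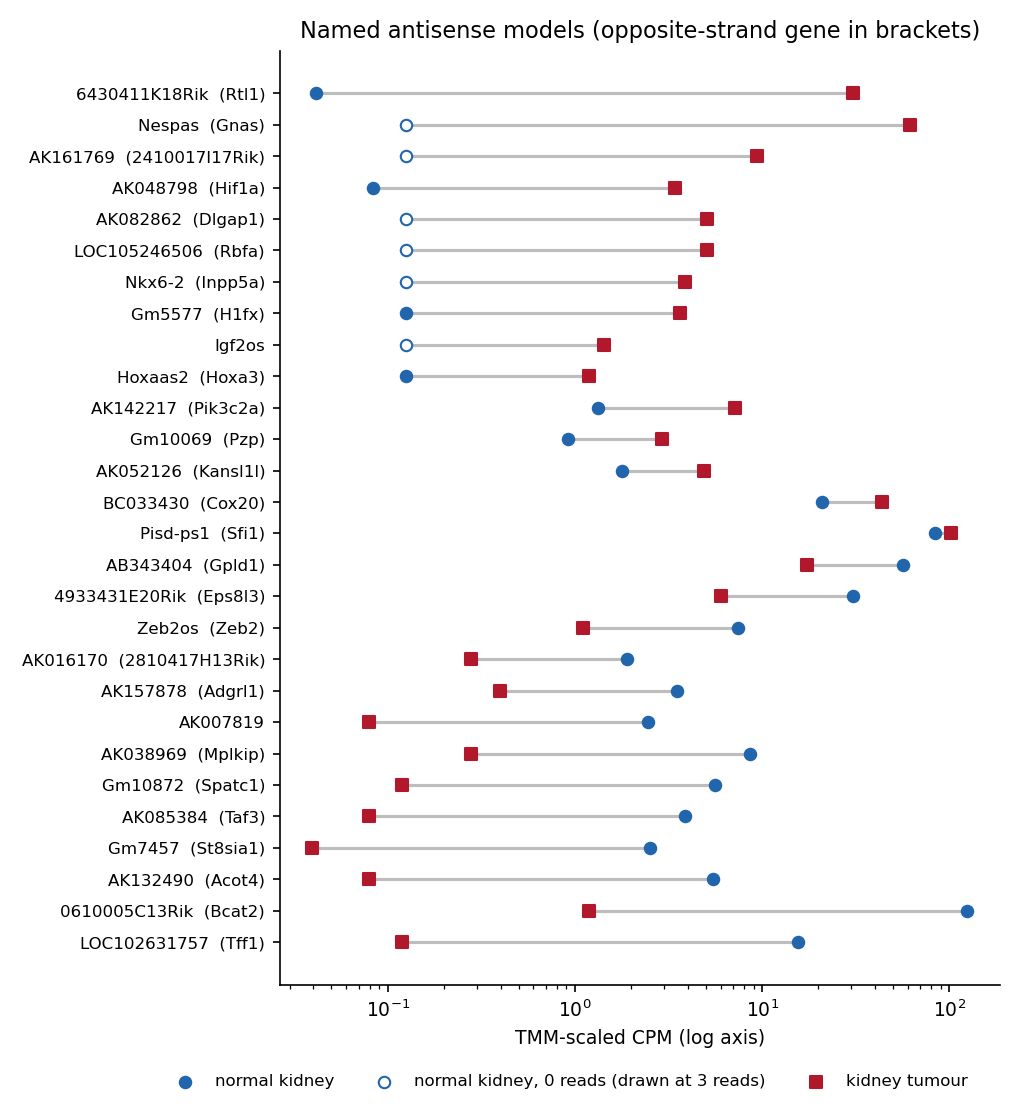
TMM-scaled CPM (log axis) of the 28 antisense models named by rule in normal kidney (blue circles) and kidney tumour (red squares), ordered by ratio, with the opposite-strand gene in brackets; open circles are 0 reads drawn at the floor of 3 reads. The 14 models at the top are higher in the tumour library past 2-fold, Pisd-ps1 is neither, and the 13 below it are lower.

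An overlapping model on the opposite strand was present in the table for 243 of the 256 antisense models, and 242 of these partners were protein-coding. In 228 pairs the partner also had 20 reads or more. Per length, the antisense model stood at a median of 8.55% of its partner in normal kidney and 6.87% in the tumour library, and above its partner in 24 pairs in each. Of the 228 partners 45 were higher and 73 lower. Both members of a pair were past 2-fold in the same direction in 61 pairs and in opposite directions in 16, and Spearman's rho of the log2 ratios was 0.380 across the 228 pairs. The points share 2 libraries and are not replicates, so no p is given.

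Pairs were then set apart by where the antisense model lies on its partner. In 93 cases it begins inside the partner and runs out past the partner's start, with a median of 706 bases between both starts. In 44 it lies wholly inside, in 92 it begins past the partner's end and reads into it, in 14 it spans the whole partner and 13 had no partner. The median log2 ratio of the models was -0.50 across the start, -0.34 inside, -0.58 across the end and -0.57 over the whole partner.

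The relation to the partner was then counted for each position. Across the partner's start, 34 of 92 pairs lay past 2-fold in the same direction and 1 in opposite directions, with a rho of 0.658. Across the partner's end, 14 of 87 pairs lay in the same direction and 12 in opposite directions, with a rho of 0.105. Inside the partner the counts were 10 and 2 of 38 pairs (rho 0.380), and over the whole partner 3 and 1 of 11 pairs. Among the 16 pairs inside the partner with at least 100 reads in both models the counts were 2 and 1 and rho was -0.02. The difference between positions was not tested.

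The pattern across the start had limits. With plain CPM there were 37 pairs in the same and 3 in opposite directions, and with header totals 37 and 4. In the 32 pairs where both models had at least 100 reads the counts were 7 and 1 and rho was 0.404. In the 11 pairs where at least 50% of the antisense span lies in the partner they were 4 and 0 with a rho of 0.282.

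Reads of the partner counted on the wrong strand would move with the partner, and several values bear on this. Where the antisense model stood at 5% or more of its partner per length, 20 of 60 pairs across the start lay in the same direction and 0 in opposite directions (rho 0.645), and below 5% the counts were 14 and 1 of 32 (rho 0.700). Over pairs of every position, with the 5% held in each library separately, rho was 0.402 across the 101 pairs at or above it and 0.743 across the 51 pairs below it, a split that leaves out pairs which cross 5% between the libraries. Of 64 models across the start that lie on a GENCODE non-coding gene, all shared exon bases with exons of the other strand, with a median share of 14.5%. Where that share was under 20%, 19 of 39 pairs lay in the same direction and 1 in opposite directions (rho 0.616). Models across the end shared a median of 25.3% over 76 models. Without the models in a coding gene of their own strand, 29 pairs across the start lay in the same and 1 in opposite directions, and 13 and 9 across the end. The part of wrong-strand reads was not tested.

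Overlapping pairs of protein-coding genes in the same table serve for comparison. Of 126 head-to-head pairs, in which each gene begins inside the other, 24 lay in the same and 13 in opposite directions (rho 0.240). Of 429 tail-to-tail pairs 56 lay in the same and 66 in opposite directions (rho -0.03), and of 86 pairs with one gene inside the other 10 and 24 (rho -0.14).

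**Figure D4:**
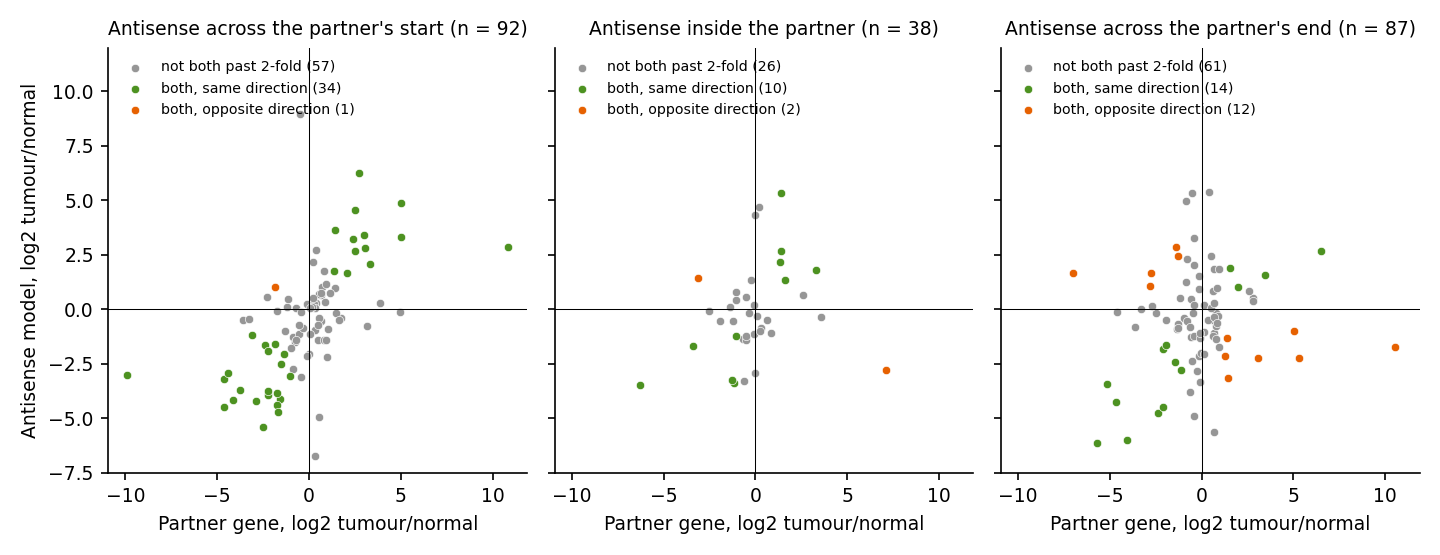
Log2 tumour/normal ratio of the antisense model (vertical) against that of its opposite-strand partner (horizontal), 1 point per pair, for models across the partner's start (92 pairs), inside the partner (38) and across the partner's end (87). Green points are past 2-fold in the same direction (34, 10 and 14) and orange points in opposite directions (1, 2 and 12).

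Of the 34 pairs across a start in the same direction, 13 were higher on both strands and 21 lower. The examples of such pairs given here, other than Gm5577, were chosen after their values were seen. Among the pairs higher on both strands, AK052878 had 0 reads in the normal kidney and 23 in the tumour opposite Sall4, a zinc finger factor of pluripotent cells, with 0 and 5786 reads. A230070E04Rik had 0 and 31 reads opposite Nefm, the medium neurofilament gene, with 6 and 202. Pcsk2os1 had 0 and 33 reads opposite Pcsk2, a prohormone convertase of neuroendocrine cells, with 0 and 25. In all 3 pairs neither strand had more than 6 reads in normal kidney. A830082K12Rik had 1 and 25 reads opposite Nr2f1, an orphan nuclear receptor of neural development, with 14 and 82. D730005E14Rik had 16 and 108 reads, 6.44-fold higher (3.79 to 11.7), opposite the antiviral deaminase gene Apobec3 with 163 and 976, 5.71-fold higher (4.83 to 6.78). At least 90% of D730005E14Rik lies within exons of the other strand, and it stood at 6.67% and 7.52% of Apobec3 per length. E130317F20Rik had 101 and 353 reads opposite Ptbp1, a splicing repressor, with 3584 and 9613. 4930429B21Rik, whose start is the densest in CG of those printed above, had 12 and 40 reads opposite Zmat3, a p53 target, with 502 and 2217.

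Among the pairs lower on both strands, 6330410L21Rik had 39 and 5 reads, 8.18-fold lower (3.22 to 26.6), opposite Egf, which the distal tubule makes in large amounts and which had 70552 and 78 reads. It stood at 0.0677% of Egf per length in normal kidney and 7.85% in the tumour library, so the 2 strands differed by very unlike amounts. AK161019 had 69 and 8 reads opposite Oxct1, which starts ketone body use, with 47966 and 2031. E130215H24Rik had 36 and 5 reads opposite Acss1, a mitochondrial acetyl-CoA synthetase, with 11470 and 574. 9330162012Rik had 40 and 1 reads, 41.9-fold lower (7.11 to 1697), opposite Aldh5a1, succinate semialdehyde dehydrogenase, with 2473 and 452. Aldh5a1 was 5.74-fold lower (5.19 to 6.35), an interval that does not overlap that of the antisense model.

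1700101I11Rik had 34 and 2 reads opposite Gabarapl1, an autophagy gene, with 16023 and 939, which is 17.8-fold (4.57 to 153) and 17.9-fold (16.7 to 19.1) lower. E230013L22Rik had 150 and 11 reads, 14.3-fold lower (7.76 to 29.2), opposite the small GTPase gene Rab20 with 521 and 164, 3.33-fold lower (2.79 to 3.99). 1810019D21Rik had 382 and 26 reads, 15.4-fold lower (10.3 to 23.9), opposite Esrp2, an epithelial splicing regulator, with 853 and 188, 4.76-fold lower (4.06 to 5.60). In the Rab20 and Esrp2 pairs the interval of the antisense model lies wholly beyond that of the gene. 0610040F04Rik had 47 and 6 reads opposite Bhlhe40, a repressor tied to the circadian clock, with 1948 and 978. The 1 pair across a start in opposite directions was R74862, with 36 and 76 reads, and Cd81, a tetraspanin gene, with 9128 and 2610.

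Of the 16 pairs in opposite directions, 12 had an antisense model that reads in from the partner's end. Gm10069 (chr6:128438757-128503281, plus strand) had 22 and 74 reads, 3.21-fold higher (1.97 to 5.43), while Pzp, a secreted protease inhibitor, had 3971 and 33, 126-fold lower (89.7 to 184). AK142217 (chr7:116334262-116338313, plus strand) had 32 and 181 reads, 5.40-fold higher (3.69 to 8.12), while the lipid kinase gene Pik3c2a had 8543 and 3671. AK157878 (chr8:83932329-83955205, minus strand) had 85 and 10 reads, 8.91-fold lower (4.62 to 19.2), while Adgrl1, a latrophilin adhesion receptor, had 1042 and 2988, 2.74-fold higher (2.55 to 2.94). AK157878 lies in the span of Gm10644, which GENCODE types as protein-coding, on its own strand. In these 3 pairs the reads of both strands differed in opposite directions between the libraries.

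BC033430, described above, was also of this kind, since Cox20, a cytochrome c oxidase assembly factor, had 1010 and 150 reads. AK016170 (chr9:65891092-65895376, minus strand) had 46 and 7 reads, 6.89-fold lower (3.09 to 18.1), inside 2810417H13Rik, which encodes a PCNA-binding factor of dividing cells and had 12 and 1767 reads, 141-fold higher (80.2 to 272). It also lies in the span of Trip4 on its own strand, which had 1722 and 916 reads. AK052126 (chr1:66722832-66724449, plus strand) had 43 and 123 reads, 2.73-fold higher (1.91 to 3.96), inside Kansl1l, with 3921 and 477 reads, 8.62-fold lower (7.83 to 9.50).

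Further pairs were named after their values were seen. AK051019, which holds Mir135a-1, had 1 and 42 reads while Glyctk, a glycerate kinase gene, had 7352 and 83. Nphs1os had 0 and 64 reads while Nphs1, the podocyte gene nephrin, had 857 and 883, 1.02-fold lower (0.925 to 1.12). Gm15441 had 242 and 10 reads opposite Txnip, a thioredoxin inhibitor, with 8479 and 2379. Gt(ROSA)26Sor, the locus into which the M2rtTA activator of the tumour's stem cells was placed, had 92 and 63 reads, 1.53-fold lower (1.10 to 2.14) and under 2-fold.

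As a check of the strand, 10 single-exon members lie with at least 90% of their span inside exons of the other strand, where wrong-strand reads would be counted most directly. Per length they stood at a median of 20.9% of the partner in normal kidney and 8.55% in the tumour library, and 3 exceeded the partner in either. Spearman's rho of the log2 ratios of model and partner was 0.438 across the 10. Examples of both kinds were named after their values were seen. D730005E14Rik moved with Apobec3, as given above, and DQ548215 had 32 and 0 reads while Gm906 had 150 and 2. AK196015 had 14 and 14 reads while Angptl2, a secreted angiopoietin-like protein gene, had 1845 and 332, and A630072M18Rik had 189 and 138 reads while Rsbn1l had 736 and 1215. AK196015 also lies in Ralgps1, a coding gene on its own strand, which had 488 and 532 reads. AK086315, AK192647, AK214512 and Mir3082 of the 10 likewise lie in a coding gene of their own strand. AK086315 and Mir3082 are among the 3 that exceeded the partner. Whether reads of these models are reads of the gene they lie in was not tested.

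A RefSeq promoter of the same symbol was found for 92 members, and 88 lay within 50 bases of the model's start. At an observed to expected CpG ratio of 0.6 or more, 50 of the 88 (56.8%) were CpG-rich. That is below the 67.9% of promoters of all measured symbols and above the 35.8% of all promoters of the same length, which include those of genes without reads. Among the 50, 7 were higher and 17 lower, and 26 were neither; the median log2 ratio was -0.50. Among the 38 below 0.6, 8 were higher and 19 lower, and 11 were neither; the median was -1.23. Across all measured symbols the medians were 0.12 for 7059 CpG-rich and -0.20 for 3337 CpG-poor promoters, so the order of both sides was the same there. Of those CpG-rich symbols 28.9% were higher and 24.0% lower, and of the CpG-poor ones 31.7% were higher and 37.2% lower. The difference between both sides of the members was not tested. CpG-rich starts made up 21 of 36 promoters of models across the partner's start and 24 of 38 across the partner's end.

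Short motifs were searched on both strands of these windows. The E-box CACGTG, the site of clock and Myc family factors, was present in 11 of 88 (12.5%, against 7.15% of all 32851 promoters), among them the printed window of E230013L22Rik. The letters TATAAA were present in 4 (4.55%, against 13.6%). CAAAGTCCA, a hepatocyte nuclear factor 4 motif, was present in 2 (2.27%, against 0.475%), 1 of them that of Gm7457, and the hepatocyte nuclear factor 1 motif in 0 (against 0.140%). CACGTG holds a CG and TATAAA holds none, while 56.8% of the 88 windows were CpG-rich against 35.8% of all promoters. Motif shares were not compared at like CpG content. No motif contains another, and a match is a description of the sequence and not of binding.

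**Figure D5:**
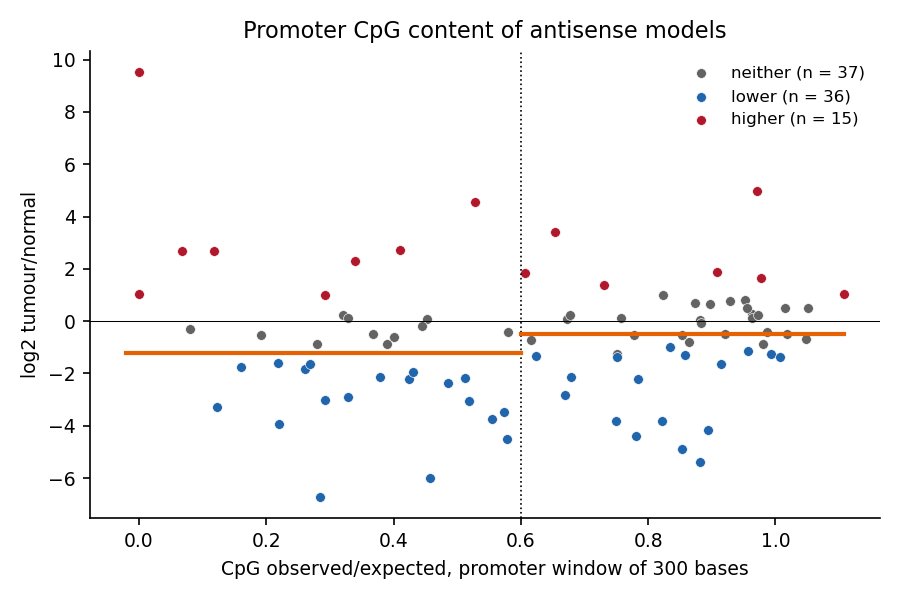
Log2 tumour/normal ratio (vertical) against the observed to expected CpG ratio of the promoter window of 300 bases (horizontal) for 88 antisense models, coloured by call; the dotted line is the split at 0.6 and the orange bars are the medians of each side. The median is -1.23 below 0.6 and -0.50 at or above it, and models of each call lie on both sides.

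The name of a model often tells from which source it was annotated, which played no part in choosing the models. Of those annotated from RIKEN cDNA clones of adult tissue, 6 of 41 were higher and 20 lower, with a median log2 ratio of -1.21. Of those from embryo clones 10 of 23 were higher and 6 lower, with a median of -0.07, and of those from neonate clones 9 of 30 were higher and 13 lower, with a median of -0.77. Models named for a gene with the ending os or as numbered 19, of which 6 were higher, 6 lower and 7 neither. Over all 256 models 22.3% were higher and 38.3% lower, and over all measured symbols 31.2% and 28%. These groups were described and not tested against each other.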

How the data were processed

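RNA-seq of 1 normal kidney and 1 kidney tumour library was used. Per the file headers, the authors deposited raw counts over exons of UCSC knownCanonical models, and RPKM values, with totals of 40408775 and 33169818 reads. Per the submitters' processing notes, mm10, HOMER, STAR 2.5.0c and bcl2fastq were used, in unstated roles. Handling of reads that match several places, and the strand setting, are not given in the sources used here. The members and lists were chosen with earlier results of these data known.

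Counts were used as deposited. TMM factors (edgeR 4.0.16, R 4.3.3) over the 16326 symbols with at least 20 reads were 0.824 and 1.21. No replicate test was possible. Ratios carry exact conditional (Clopper-Pearson) 95% intervals, which cover counting error only. A count of 0 was set to a floor of 3 reads (0.124 CPM for normal kidney, 0.119 CPM for the tumour). The fold is then a ratio against that floor and not a bound. Intervals use the counts without the floor. Poisson counts without variation between animals were simulated for all 16326 symbols, with 100 symbols changed at each fold. In them 100% of 4-fold and of 8-fold changes were called, and 0.415% of unchanged symbols. These rates do not cover variation between animals. They were also not taken at the depth of the antisense models, whose median was 61.5 reads against 998 for all symbols. The partner is the opposite-strand model with the longest shared span. Genes were named by a rule: the 4 models with most reads per library, the 8 largest ratios in each direction at a mean of at least 1 CPM with an interval beyond 2-fold, list members with at least 0.5 CPM, and the 6 opposite pairs with the largest difference. Promoters were matched by symbol and used within 50 bases of the model's start. Analyses used Python 3.11.15, pandas 2.3.3, numpy 2.4.6, scipy 1.17.1 and matplotlib 3.10.9. DESeq2 1.42.0 size factors, other totals, RPKM scales, read minimums, call rules and partner rules served as alternatives.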

Additional observations from a re-analysis of the deposited data

How the results depend on the processing

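No paired analysis was possible because each group has 1 library and no replicate numbers to pair. The scaling set the centre of all ratios: the median log2 ratio of all measured symbols was 0.08 with TMM, 0.642 with plain CPM, 0.437 with the totals of the headers, 0.402 on the log2 scale of RPKM plus 0.1 and 0.245 with RPKM plus 1, and that of the antisense models -0.51, 0.0509, -0.154, -0.127 and -0.0423 in that order. Pairs in opposite directions across the partner's start numbered 1 with TMM, 3 each with plain CPM and RPKM plus 0.1, and 4 with header totals. With plain CPM the median across the partner's end was -0.0204, and 22 genes of the nuclear RNA decay list were higher. A pseudocount of 1 RPKM, above most of these models' levels, left 19 models higher and 27 lower, 13 pairs in the same and 1 in opposite directions, 5 and 0 across the start (rho 0.519) and 6 and 1 across the end, medians of -0.0726 across the end and -0.195 for CpG-poor starts, 3 imprinted antisense RNAs higher and 0 lower, 1 developmental one higher and 3 lower, and 0 Hox ones higher. Of the 28 named models, 9 were no longer past 2-fold on that scale and none changed direction.

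With at least 100 reads, 18 models were higher and 40 lower, the median of all symbols was -0.0161, 15 pairs lay in the same and 4 in opposite directions, 7 in the same direction across the start (rho 0.404), and 4 and 2 across the end (rho 0.345). With at least 10 reads 28 pairs lay in opposite directions and the median of all symbols was 0.133. With at least 1 read 30 pairs did, 2 of them across the start, rho was 0.150 over all pairs, 0.379 across the start and -0.0361 across the end, and the median of all symbols was 0.0475. Where the interval had to lie wholly beyond 2-fold, 37 models were higher and 61 lower, 7 pairs lay in opposite directions, 0 of them across the start, and 8 and 5 pairs across the end lay in the same and in opposite directions, and 3 of the 28 named models were not called. With at least 50% of the antisense span in the partner, 22 pairs lay in the same and 8 in opposite directions, 4 and 0 across the start (rho 0.282) and 8 and 6 across the end (rho 0.246). For all of these the cause was not tested, beyond the fewer models or pairs counted.

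The remaining 3 alternatives were chosen after the data were seen. Pairs with the antisense model at 5% or more of the partner per length numbered 37 in the same and 8 in opposite directions, 20 and 0 across the start and 7 and 7 across the end. With under 20% of exon bases shared with the other strand they numbered 27 and 5, with 19 in the same direction across the start and 5 and 4 across the end. Without models in a coding gene of their own strand, and with DESeq2 size factors, the counts of models and pairs were within 1.5 times the value of the report, rho within 0.1 and the medians within their intervals. The same held for the numbers of higher and lower models and their median with all chromosomes, and for the promoter medians with a CpG split at 0.4. It also held for the pair counts and rho with the partner with most reads. There each pair kept the position of the partner with the longest shared span, so the counts by position were not checked against the choice of partner. Counting every model could change nothing, because no symbol occurs more than once. Coding partners could change little, because 242 of 243 partners are coding. Depth limits all of this: 163 of the 256 models had under 100 reads, and 1 library per group gives no spread between animals.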

Other observations

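On the X chromosome, which the choice of models left out, BC065397 had 78 reads in normal kidney and 225 in the tumour, 2.75-fold higher (95% interval 2.12 to 3.61). AK010638 had 0 and 121 reads, 38.5-fold higher against the floor (lower interval limit 30.8). A230072C01Rik had 86 and 79 reads, 1.14-fold lower and under 2-fold. The sources used here do not give the sex of either animal.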
